A study of Rattus norvegicus with 12 samples.

Results

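The Cyp2c family of cytochrome P450 genes was followed through hepatocytes of the rat liver by strain, by platform and by position in the lobule. The 8 members were Cyp2c11, Cyp2c12, Cyp2c6v1, Cyp2c7, Cyp2c13, Cyp2c22, Cyp2c23 and Cyp2c24, chosen by symbol from 32883 annotated genes with earlier strain results of these data known. They are all the symbols of the annotation that begin with Cyp2c, out of 71 that begin with Cyp. Because the choice drew on the strain contrast, the strain values of the members are given as a description, without p-values. How many of them passed a test fitted over all genes is given only beside the share of all genes that did.

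Every animal was a healthy male. Total liver homogenate (TLH) cells came from 2 Dark Agouti (DA) and 2 Lewis (LEW) rats after collagenase perfusion. Nuclei came from snap-frozen liver of 2 DA and 2 LEW rats that the study describes as additional animals. Immune-enriched cells, prepared with extra washes and red cell depletion, came from 1 rat of each strain, and 2 Wistar livers gave 1 Visium section each. The series' design text gives 8 to 10 weeks of age for the TLH rats, while the labels of the deposited count tables carry 10 weeks for both DA and 13 weeks for both LEW TLH rats, and 9 weeks for both immune-enriched rats. The study's methods state an older, matched age. Age and strain therefore cannot be told apart in the TLH cells. No age is given by the labels for the nuclei or the sections.

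The quantity measured was the unique molecular identifier (UMI), 1 count per captured molecule. TLH libraries held 61441846 to 92484173 UMIs, nuclei libraries 8039397 to 15186970, immune-enriched libraries 48255870 and 60005133, and sections 34449562 and 34827603. Hepatocyte-like cells numbered 2913 to 4581 per TLH library, 1944 to 4968 per nuclei library, and 244 (DA) and 1619 (LEW) in the immune-enriched libraries. In these cells all 38 measured hepatocyte markers were detected and took 13.8% to 20.2% of UMIs, whereas each list of another class took at most 0.0868%. The cells were named with these same lists, so the shares describe them and do not check the naming. In other classes of TLH cells the hepatocyte list stood at 0.529 to 0.868 of its level in hepatocyte-like cells. Nuclei libraries shared 8 to 24 barcodes between any pair. A level below is in CPM, the gene's UMIs scaled to the usual fixed total of UMIs over all genes, summed over the hepatocyte-like cells of 1 library. Levels of different genes are not ranked against each other.

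Cytochrome P450s of the Cyp2c family are haem enzymes of the endoplasmic reticulum that oxidise steroids, fatty acids and drugs, drawing electrons from the reductase Por. In rat liver several members depend on sex through the pattern of growth hormone release, which acts by Stat5b: Cyp2c11 and Cyp2c13 are the classical male forms, while Cyp2c12 is the classical female form and Cyp2c7 is the more abundant in females. Hepatocytes around the central vein carry most of the P450 activity of the lobule, and those around the portal tract carry more of the urea cycle and gluconeogenesis.

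The 250 bases before the transcription start are shown for 5 members because they hold the sex-dependent genes that lay apart in strain or zone, and Cyp2c24 for its likeness to Cyp2c11. Capitals mark TATAAA, the core of the TATA box, and ATTGAT, a core recognised by Onecut factors, on either strand. The motif TTCNNNGAA of Stat5 was searched for on both strands as well. The sequences are from RefSeq in build GRCr8, in which the 7 members that have an entry lie on chromosome 1. The windows are, in order, chr1:246174966-246175215 on the plus strand, chr1:246286091-246286340 on the plus strand, chr1:248787189-248787438 on the minus strand, chr1:248677035-248677284 on the minus strand and chr1:247966144-247966393 on the plus strand.
Cyp2c11: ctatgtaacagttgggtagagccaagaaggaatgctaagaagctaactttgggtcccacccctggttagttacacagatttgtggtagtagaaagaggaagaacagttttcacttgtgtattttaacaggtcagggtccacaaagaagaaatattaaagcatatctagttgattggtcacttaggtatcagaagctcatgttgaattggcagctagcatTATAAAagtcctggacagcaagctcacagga
Cyp2c24: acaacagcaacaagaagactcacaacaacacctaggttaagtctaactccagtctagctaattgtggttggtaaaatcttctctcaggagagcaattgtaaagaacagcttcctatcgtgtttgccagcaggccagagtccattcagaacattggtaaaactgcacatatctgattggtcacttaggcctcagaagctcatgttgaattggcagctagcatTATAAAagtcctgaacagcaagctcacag
Cyp2c13: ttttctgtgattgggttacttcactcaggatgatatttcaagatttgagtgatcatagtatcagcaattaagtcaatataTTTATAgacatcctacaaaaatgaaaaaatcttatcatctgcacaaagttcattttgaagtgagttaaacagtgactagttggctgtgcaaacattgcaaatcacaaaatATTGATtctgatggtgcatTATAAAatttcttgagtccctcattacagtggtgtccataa
Cyp2c12: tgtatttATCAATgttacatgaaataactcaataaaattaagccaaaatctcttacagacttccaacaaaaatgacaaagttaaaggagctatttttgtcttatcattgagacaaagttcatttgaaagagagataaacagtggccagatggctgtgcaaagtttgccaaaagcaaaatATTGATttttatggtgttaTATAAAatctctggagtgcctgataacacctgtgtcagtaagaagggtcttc
Cyp2c7: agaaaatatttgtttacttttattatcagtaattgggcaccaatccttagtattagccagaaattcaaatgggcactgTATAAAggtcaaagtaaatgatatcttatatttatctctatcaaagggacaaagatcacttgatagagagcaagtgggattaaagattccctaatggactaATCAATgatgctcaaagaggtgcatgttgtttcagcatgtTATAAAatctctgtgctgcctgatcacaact

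Counted back from the start, TATAAA began at base -31 of Cyp2c11, -29 of Cyp2c24, -41 of Cyp2c13, -52 of Cyp2c12 and -31 of Cyp2c7, with a further match at -172 of Cyp2c7 and, on the other strand, at -170 of Cyp2c13. Cyp2c11 and Cyp2c24 shared an unbroken run of 45 bases around it, from base -63 to -19 of Cyp2c11, the longest run shared by any pair of the 7 windows. ATTGAT was matched 2 times in Cyp2c12, once in Cyp2c7 and once in Cyp2c13, and in no other window of the family. TTCNNNGAA was matched in none of the 7 windows. Over 33469 RefSeq promoters of this length, 12.9% held TATAAA, 7.10% held ATTGAT and 7.67% held TTCNNNGAA. A match describes letters only and was not tied to binding.

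By strain, the family did not move as a block. In TLH hepatocytes the female-type Cyp2c12 was about 22.0-fold higher in DA, Cyp2c6v1, Cyp2c7, Cyp2c13 and Cyp2c24 were higher in LEW, Cyp2c22 was higher in DA, and Cyp2c11 and Cyp2c23 lay close together in all 4 rats. In nuclei the same directions were seen for Cyp2c12, Cyp2c6v1, Cyp2c13, Cyp2c22 and Cyp2c24, while Cyp2c7 lay the other way round. Across the family, UMIs of all 8 members together made up 0.681% and 0.734% of hepatocyte UMIs in the DA and 0.880% and 0.779% in the LEW TLH libraries. The sums in nuclei were 0.794% and 0.879% in DA and 1.23% and 1.13% in LEW.

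**Figure D1:**
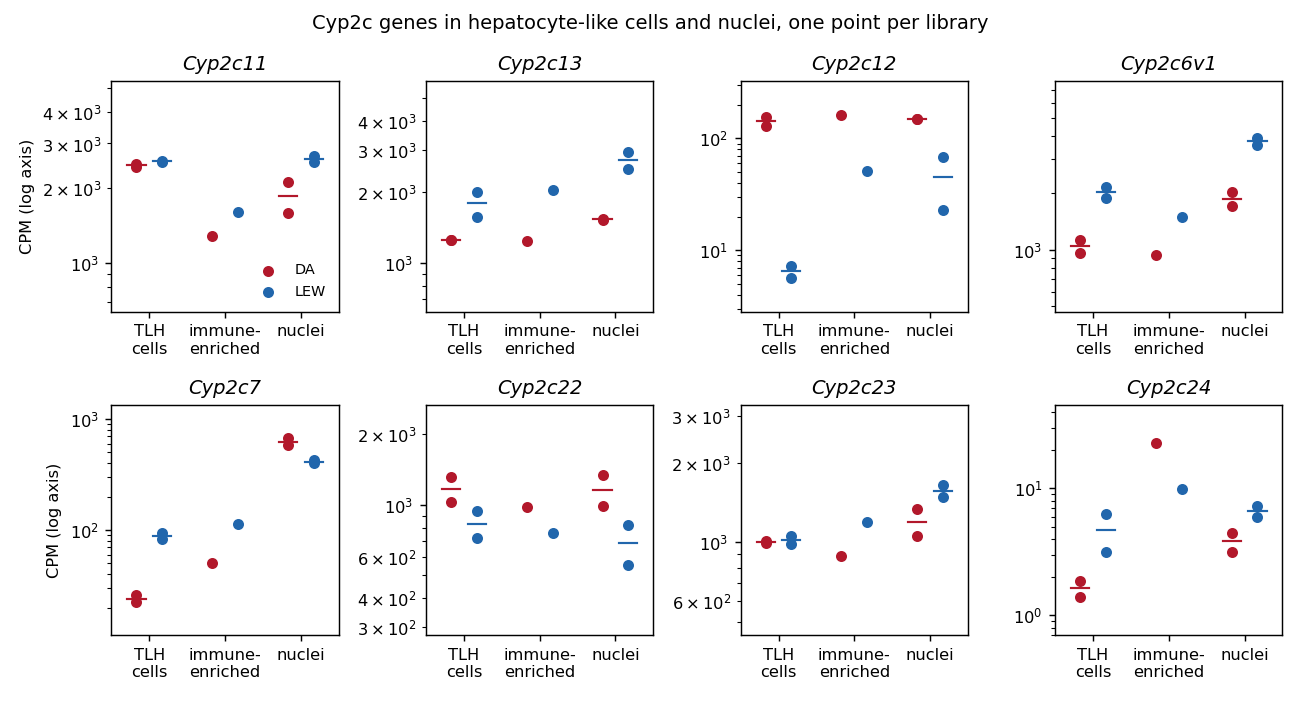
Level of each Cyp2c gene in hepatocyte-like cells or nuclei (CPM, log axis) for TLH, immune-enriched and nuclei libraries. Each point is 1 library, DA in red and LEW in blue, and bars are means of 2. Cyp2c12 is higher in DA on every platform, and the strain order of Cyp2c7 in nuclei is the reverse of that in TLH cells.

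Cyp2c11, the main male-type form and a testosterone hydroxylase, reached 2420 CPM in DA-1, 2480 in DA-2, 2556 in LEW-1 and 2539 in LEW-2 of the TLH hepatocytes. The strains did not overlap, yet they were separated by only 0.08 ± 0.12 (SE) on the log2 scale, LEW minus DA. In nuclei the levels were 1584 and 2108 CPM in DA and 2538 and 2664 in LEW, again without overlap, with a log2 difference of 0.52 ± 0.40.

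Cyp2c13, the second male-type form, was at 1244 and 1243 CPM in the DA rats against 2002 and 1567 CPM in the LEW rats of the TLH set. Both LEW rats lay above both DA rats, and the log2 difference was 0.54 ± 0.14. The nuclei gave 1526 and 1532 CPM in DA and 2944 and 2495 in LEW, a log2 difference of 0.86 ± 0.41.

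Cyp2c12, the female-type steroid hydroxylase, showed the widest separation in the family. TLH hepatocytes had 128.9 and 156.7 CPM in DA and 5.65 and 7.32 CPM in LEW, the latter from 61 and 51 UMIs. Even the lower DA rat was far above the higher LEW rat, and the log2 difference was -4.46 ± 0.20. In nuclei the DA rats were alike, at 149.5 and 148.9 CPM, while the LEW rats had 22.9 and 67.8 CPM and differed between themselves. The log2 difference in nuclei was -1.76 ± 0.43, and ranged from -2.57 to -1.24 with 1 library left out.

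Cyp2c6v1, a constitutive form present in both sexes, lay higher in LEW. Its TLH levels were 956 and 1131 CPM in DA and 2154 and 1874 in LEW, a log2 difference of 0.97 ± 0.15. Its levels in nuclei were 1709 and 2008 CPM in DA and 3902 and 3582 in LEW, a log2 difference of 1.04 ± 0.41. LEW lay above DA on both platforms, and the difference between platforms was not tested. Cyp2c6v1 was at most 15.4% of family UMIs in the DA TLH cells and 24.5% and 24.1% in the LEW, a share of counts only.

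Cyp2c7, a retinoid-oxidising form, was low in TLH hepatocytes at 22.5 and 25.8 CPM in DA and 82.7 and 94.5 CPM in LEW. LEW was higher there by 1.89 ± 0.15 on the log2 scale. In nuclei it stood at 578 and 671 CPM in DA and 400 and 426 CPM in LEW, with DA the higher by a log2 difference of -0.58 ± 0.39, LEW minus DA. The strains did not overlap on either platform, in opposite order. RefSeq lists a near copy of Cyp2c7, which the annotation carries as LOC100361547. It held 0 to 30 UMIs per library in hepatocyte-like cells or sections, so how reads were divided between the copies cannot be judged here and the level of Cyp2c7 is uncertain to that extent.

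Cyp2c22, reported as a retinoic acid hydroxylase, was higher in DA on both platforms. TLH levels were 1030 and 1311 CPM in DA and 939 and 720 CPM in LEW, a log2 difference of -0.48 ± 0.18. In nuclei the levels were 1337 and 986 CPM in DA and 817 and 554 CPM in LEW, a log2 difference of -0.74 ± 0.44. The gap between the closest rats of the 2 strains was small on both platforms.

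Cyp2c23, an arachidonic acid epoxygenase, was at 1008 and 993 CPM in DA and 1055 and 986 CPM in LEW TLH hepatocytes. It was the only member whose strains overlapped there. Nuclei had 1058 and 1330 CPM in DA and 1652 and 1479 in LEW, a log2 difference of 0.42 ± 0.40. Cyp2c24 was scarce, at 1.39 and 1.87 CPM in DA and 6.30 and 3.16 CPM in LEW TLH cells, from 12, 24, 68 and 22 UMIs. Its log2 difference was 1.56 ± 0.41, and 0.95 without LEW-1. In nuclei it was at 3.18 and 4.48 CPM in DA and 7.24 and 5.92 CPM in LEW, from 14 to 72 UMIs.

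Against all genes, these separations read as follows. In TLH hepatocytes 7 of 8 members did not overlap between strains, where 53.0% of 9874 tested genes did not. In 5 members LEW lay above DA without overlap (24.0% of genes), and in 2, Cyp2c12 and Cyp2c22, DA lay above LEW (29.0%). edgeR's quasi-likelihood test passed 3 members, Cyp2c6v1 and Cyp2c7 as higher in LEW and Cyp2c12 as higher in DA, where it passed 4.23% of genes, 2.02% higher in LEW and 2.22% higher in DA. In nuclei all 8 members did not overlap, where 36.9% of 10661 genes did not, 5 with LEW above (18.0%) and 3 with DA above (18.9%). The test passed no member there, where it passed 1.3% of genes, 0.553% higher in LEW and 0.75% higher in DA. DESeq2 passed 1 member and 247 of the 10661 genes, and edgeR with same-numbered rats as a block passed 1 member and 395 genes. The members were chosen with this contrast in view, so these counts are not evidence about the family. Without a filter on low counts, 6 members passed in TLH cells, beside 1112 of 15860 genes, and 1 in nuclei, beside 534 of 17793 genes. Of all tested genes, 2071 in TLH cells and 1097 in nuclei were under 0.05 before adjustment, and so were 6 and 2 members.

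Markers of other classes moved with strain in the hepatocyte-like sums. The 18 mesenchymal markers summed to 0.0426% and 0.0461% of UMIs in DA and 0.0628% and 0.0868% in LEW, with all 18 detected in each library. Up to 10 measured cholangiocyte markers summed to 0.0152% and 0.0151% in DA and 0.00868% and 0.00689% in LEW. The endothelial list was at 0.0351% and 0.0368% in DA and 0.0214% and 0.0333% in LEW, while the Kupffer list, at 0.0424% to 0.0628%, overlapped between strains. In nuclei the mesenchymal list was at 0.0192% and 0.0210% in DA and 0.0302% in both LEW rats. The Kupffer list there was at 0.0151% and 0.0164% in DA and 0.0227% and 0.0195% in LEW, and the cholangiocyte list at 0.0217% and 0.0289% in DA and 0.0174% and 0.0106% in LEW, again without overlap. The part of these classes in the strain differences of the members was not tested.

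In the immune-enriched libraries, with 1 rat per strain and no replicate check, hepatocyte-like cells gave the same order for Cyp2c12, at 162.9 CPM in DA and 51.2 in LEW, a ratio of DA to LEW of 3.18 with an exact counting interval of 2.92 to 3.46. Cyp2c7 stood at 50.1 CPM in DA and 113.4 in LEW, the order seen in TLH cells. Cyp2c6v1 was at 938 and 1494 CPM, Cyp2c13 at 1242 and 2034 CPM, and Cyp2c22 at 975 and 760 CPM in DA and LEW, again the TLH order. Cyp2c24 was at 22.8 CPM in DA and 9.81 CPM in LEW, the reverse of the TLH order. The clusters of hepatocyte-like cells in these libraries ranged in median depth from 1439 to 38376 UMIs. Counting intervals cover counting error only, not the spread between rats.

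Between cells and nuclei the largest ratio was that of Cyp2c7 in DA and that of Cyp2c12 in LEW. The mean level of Cyp2c7 in nuclei was 25.9 times that in TLH cells in DA and 4.66 times in LEW, and no library of one platform overlapped one of the other within a strain. Cyp2c12 in LEW had 6.99 times its TLH level in nuclei (3.13 to 12.0 over pairs of rats), against 1.04 times in DA, where the platforms overlapped. Cyp2c6v1 was higher in nuclei by 1.78 times in DA and 1.86 times in LEW. Cyp2c11 went the other way in DA, at 1.33 times its level in nuclei, and overlapped in LEW. Cyp2c22 overlapped between platforms in both strains. Chemistry, tissue preparation and animals differed between the platforms and cannot be told apart.

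The other genes of P450 function were tested by strain over 5 lists, 72 of whose 81 symbols are in the annotation. In TLH hepatocytes 13 of 66 tested genes passed, 5 higher and 8 lower in LEW, beside 4.23% of all genes. Their median log2 difference was -0.22, beside -0.01 over all tested genes. The lists were drawn up with earlier results of these data known.

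Among other xenobiotic P450s, 2 of 16 passed: Cyp2d5 rose in LEW by 1.18 ± 0.23 on the log2 scale (adjusted p = 0.0424) and Cyp2d4 was lower in LEW, at -1.11 ± 0.19 (adjusted p = 0.0192). Among genes of fatty acids and eicosanoids, 4 of 15 passed. Cyp4a2, a fatty acid omega-hydroxylase, had 921 and 1069 CPM in DA and 108.7 and 53.1 CPM in LEW, 12.1-fold lower in LEW (adjusted p = 0.0272). Its log2 difference went from -3.60 to -4.20 without LEW-1. Ephx2, the soluble epoxide hydrolase that opens the epoxides made by enzymes such as Cyp2c23, had 2.67 and 6.01 CPM in DA and 37.9 and 40.9 in LEW, 8.81-fold higher in LEW (adjusted p = 0.00642). Its log2 difference, 3.14, was 3.93 without DA-2. Cyp4f5 and Cyp4f6 were higher in LEW as well, by log2 differences of 2.88 ± 0.58 and 0.76 ± 0.13. Cyp4f5 was scarce, at 0.348 and 0.156 CPM in DA and 1.85 and 1.72 CPM in LEW, so its difference rests on few UMIs. The 2 fatty acid genes with the largest separation thus lay in opposite directions.

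Of the electron donors and partners, 2 of 9 passed. Por, which supplies electrons to every microsomal P450, was at 81.2 and 72.8 CPM in DA and 44.3 and 49.4 CPM in LEW, a log2 difference of -0.69 ± 0.14 (adjusted p = 0.0302). Hmox1, which breaks down haem and is also a Kupffer marker, was at -0.71 ± 0.16 (adjusted p = 0.0499). Of 15 receptors and factors 4 passed, all lower in LEW: Nr1i3 (the xenobiotic receptor CAR) at -1.17 ± 0.16, Cebpb at -0.98 ± 0.17, Ahr at -0.71 ± 0.13, and Nr1i2 (PXR), named after its value was seen to complete the count, at -0.65 ± 0.13. Of 13 growth hormone and sex-dependent genes 2 passed, Cyp4a2 again and Socs2, a growth hormone-induced feedback inhibitor that had 10.6 and 8.51 CPM in DA and 42.6 and 53.8 in LEW, 5.16-fold higher in LEW (adjusted p = 0.000557). Leaving out 1 library at a time gave 7 calls over the lists without DA-1, 4 without DA-2 and 3 without either LEW rat. Cyp4a2 no longer passed without either DA rat, Ephx2 without either LEW rat and Por without any 1 of the 4 rats, while Socs2 passed each time.

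In nuclei 2 of 66 tested list genes passed by strain, beside 1.3% of all genes. Cyp4a2 had 2339 and 2109 CPM in DA and 151.2 and 93.3 CPM in LEW, 17.7-fold lower in LEW (adjusted p = 0.00183). Prlr, the prolactin receptor, had 11.8 and 14.9 CPM in DA and 3.92 and 1.86 CPM in LEW, 4.28-fold lower in LEW (adjusted p = 0.0425). Its log2 difference, -2.10, was -2.92 without LEW-1, and -1.63 without LEW-2, where it no longer passed (adjusted p = 0.0876). Por was at -0.79 ± 0.39 with the strains overlapping (adjusted p = 0.521). Ephx2 was at -0.31 ± 0.51 in nuclei, and Socs2, at 2.17 ± 1.03, rested on LEW-2 with 527 CPM against 44.7 in LEW-1.

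By position in the lobule, the male-type members and Cyp2c22 and Cyp2c23 were higher in the pericentral than in the periportal group of nuclei, and Cyp2c7 was higher in the periportal group. Clusters of hepatocyte-like nuclei were put in 3 groups by a score of 10 pericentral genes, such as Glul and Oat, and 10 periportal genes, such as Sds and Ass1. No gene whose symbol begins with Cyp entered these clusters or this score. The groups were formed from other genes of the same nuclei, so the adjusted p covers the spread between rats under this grouping. The fit kept each rat as a block and compared 4 pericentral with 4 periportal sums.

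**Figure D2:**
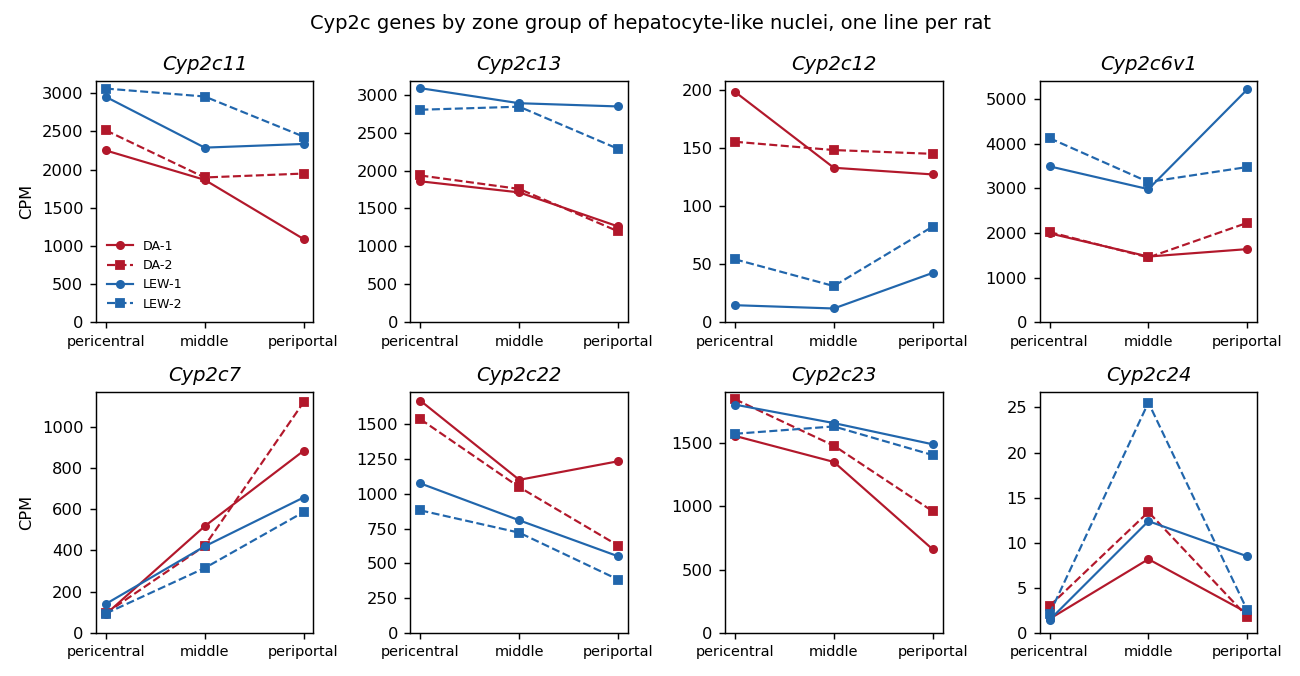
Level of each Cyp2c gene (CPM) in the pericentral, middle and periportal groups of hepatocyte-like nuclei, 1 line per rat, DA red and LEW blue. Cyp2c7 is higher in the periportal group in all 4 rats, and Cyp2c11, Cyp2c13, Cyp2c22 and Cyp2c23 are higher in the pericentral group in all 4.

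Cyp2c7 had 90.0, 94.7, 140.1 and 93.5 CPM in the pericentral groups of DA-1, DA-2, LEW-1 and LEW-2. In their periportal groups it had 883, 1119, 657 and 586 CPM. No periportal value came near a pericentral one, and by CPM the periportal level was 4.69-fold to 11.8-fold higher. The fit, whose scaling shifts values towards the pericentral side, gave log2 -2.22 ± 0.21 (SE, adjusted p = 6.70e-08), and -2.92 by library size alone. It was the only member that passed towards the portal side.

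Cyp2c22 had 1671, 1537, 1075 and 881 CPM pericentrally and 1235, 628, 551 and 383 CPM periportally in the same order of rats. Every rat was higher on the pericentral side (log2 1.67 ± 0.17, adjusted p = 6.77e-09, and 0.97 by library size alone). Cyp2c23 had 1555, 1845, 1802 and 1572 CPM pericentrally and 659, 960, 1489 and 1404 CPM periportally. Here too all 4 rats pointed to the central vein, with a narrow gap in LEW (log2 1.35 ± 0.19, adjusted p = 7.28e-07, and 0.65 by library size alone). Grouped by the zone genes that the study names, LEW-2 turned, with 1440 CPM pericentrally and 1460 CPM periportally.

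Cyp2c11 had 2251, 2515, 2954 and 3062 CPM pericentrally and 1090, 1948, 2336 and 2433 CPM periportally (log2 1.21 ± 0.17, adjusted p = 1.37e-06, and 0.52 by library size alone). Cyp2c13 had 1858, 1935, 3087 and 2802 CPM pericentrally and 1262, 1198, 2846 and 2286 CPM periportally (log2 1.11 ± 0.17, adjusted p = 2.73e-06, and 0.41 by library size alone). For both, as for Cyp2c22 and Cyp2c23, the fitted value exceeded the log2 ratio of the CPM in every rat. Both male-type forms were higher on the pericentral side in all 4 rats. Cyp2c6v1 passed as well (log2 0.65 ± 0.17, adjusted p = 0.0017), but its CPM was higher pericentrally in only 2 of 4 rats. Grouped by the study's zone genes, it was higher pericentrally in all 4 rats, at 1930, 2187, 4684 and 3913 CPM against 1613, 2083, 3712 and 3421 CPM, and did not pass. Cyp2c12 did not pass (log2 0.44 ± 0.30, adjusted p = 0.228) and was higher pericentrally in both DA rats and periportally in both LEW rats. Without LEW-1 it passed (log2 0.71 ± 0.21, adjusted p = 0.00945). Grouped by the study's zone genes it was higher pericentrally in all 4 rats, with 32.6 against 21.5 CPM in LEW-1 and 85.1 against 59.3 CPM in LEW-2. Cyp2c24 did not pass the filter on low counts.

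Of the 7 members tested, 6 passed, 5 towards the pericentral and 1 towards the periportal side, where 63.9% of 9937 genes passed, 31.4% of the tested genes towards the pericentral and 32.6% towards the periportal side. By CPM alone, 4 members were higher on the pericentral side of all 4 rats, where 17.6% of genes were, and 1 on the periportal side, where 59.4% were. The median log2 difference was 1.11 over the members and -0.12 over all tested genes. The groups differed in more than zone. Periportal nuclei had a median of 2736 to 3324 UMIs against 1325 to 1483 in pericentral nuclei. The 38 hepatocyte markers took 8.68% to 10.9% of periportal and 19.1% to 23.2% of pericentral UMIs. Alb alone took 1.06% to 1.75% of periportal and 4.10% to 4.97% of pericentral UMIs. In the Wistar sections Alb lay the other way, at 91057 and 88008 CPM in pericentral and 106778 and 106479 CPM in periportal spots. The scaling of the fit (TMM) is meant to adjust for such a difference in makeup. With 63.9% of genes passing, whether it did so was not tested. Scaled by library size alone, the median over all genes moved from -0.12 to -0.84, 21.5% of 7559 calls rather than 49.1% of 6352 were pericentral, Cyp2c6v1 was at -0.05 and Cyp2c12 at -0.26, and 4 members passed towards the pericentral side with Cyp2c7 at -2.92. Grouped by the zone genes that the study names, which include the P450 Cyp2e1, and where depth was more even, the log2 differences were 0.61 for Cyp2c11, 0.56 for Cyp2c12, 0.67 for Cyp2c22 and -2.19 for Cyp2c7, each past the threshold, as was the scarce Cyp2c24 at -2.83 and as were 893 of 9695 genes, while Cyp2c13, Cyp2c6v1 and Cyp2c23 were at 0.34, 0.24 and 0.34 and did not pass. The part of depth in the zone differences was not tested.

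The difference in zone effect between strains was tested as an interaction, and none of the 7 members passed, where 0.0704% of genes did, or 7 in all (0.0201% larger in LEW and 0.0503% larger in DA). By edgeR 489 genes and 3 members were under 0.05 before adjustment. DESeq2, which gave an adjusted p for 1460 of 9937 genes, passed no member either. The largest interaction of a member was that of Cyp2c12, with log2 ratios of pericentral to periportal CPM of 0.64 in DA-1, 0.10 in DA-2, -1.54 in LEW-1 and -0.60 in LEW-2. The zone effect was lower in LEW by a log2 difference of -1.37 ± 0.31 (adjusted p = 0.142), and the LEW ratios rest on 51 and 77 pericentral UMIs. Grouped by the study's zone genes, this interaction was -0.04 ± 0.23, and with a stricter naming of clusters (100 rather than 300 leading genes) it was -3.67 ± 0.47 and passed (adjusted p = 6.29e-07), where 15 of 9357 genes did. With no filter on low counts it was -1.36 ± 0.32 and passed (adjusted p = 0.0294), where 26 of 17455 genes did. Cyp2c7 followed at 1.06 ± 0.33 (adjusted p = 0.493), its periportal excess being 9.81-fold and 11.8-fold in DA and 4.69-fold and 6.26-fold in LEW. Then came Cyp2c23 at -0.82 ± 0.32 (adjusted p = 0.905), its pericentral excess being 2.36-fold and 1.92-fold in DA and 1.21-fold and 1.12-fold in LEW. With zone groups of single nuclei the interaction of Cyp2c23 passed in edgeR (adjusted p = 0.042), where 270 of 9568 genes did.

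Other P450 genes were tested by zone in the same fit, and 37 of 65 passed, 26 pericentral and 11 periportal, beside 63.9% of all genes. Genes of these lists that are not P450s took part in the clustering, and some, such as Pgrmc1 and Nr1i3, were among the leading genes of clusters, so their values describe groups that they helped to form. By library size alone the split was 14 pericentral and 27 periportal. A pericentral call of the fit could run against the CPM. Cyp2b3, named after its values were seen, passed at 0.56 ± 0.16 with its CPM lower pericentrally in every rat. It had 1027, 1097, 864 and 881 CPM pericentrally and 1243, 1121, 1006 and 887 CPM periportally in DA-1, DA-2, LEW-1 and LEW-2. Among xenobiotic P450s 11 of 16 passed, led by Cyp1a2 (log2 2.87 ± 0.18), Cyp2e1 (2.03 ± 0.20) and Cyp3a9 (1.85 ± 0.27) on the pericentral side, while Cyp2f4 was periportal (-2.09 ± 0.16). Of 9 electron donors and partners 6 passed, all pericentral, with Pgrmc1, a haem-binding P450 partner, at 2.47 ± 0.19, Cyb5r3 at 2.10 ± 0.14 and Por at 1.07 ± 0.35 (adjusted p = 0.0354), although Por in DA-1 lay the other way. Among fatty acid genes 6 of 14 passed, with Cyp2j4, a further epoxygenase, at 1.42 ± 0.17 and Cyp4a3 periportal at -2.12 ± 0.23. Receptors and factors passed in 9 of 15 cases, of which 6 were periportal, including Onecut1 (-1.57 ± 0.29), Nr1i2 (-1.31 ± 0.15) and Ppara (-1.13 ± 0.19). Of the growth hormone and sex-dependent genes 6 of 13 passed, with Sult1e1 pericentral at 1.44 ± 0.18 and Stat5b periportal at -0.71 ± 0.25. None of the 65 passed the interaction with strain by edgeR or by DESeq2, and 14 were under 0.05 by edgeR before adjustment.

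The Visium sections, from Wistar rats, gave levels by zone in tissue, where Cyp2c13 and Cyp2c23 departed from the nuclei. Cyp2c12 and Cyp2c6v1, pericentral in only 2 of 4 rats in nuclei grouped by the score, were pericentral in both sections. Spots were ordered by the same score and split into 3 equal groups of 801 to 813 spots. A spot can hold several cells, and fewer hepatocytes and less RNA per hepatocyte cannot be told apart in it. With 1 value per section, the ratios are a description. Glul, the marker of the central vein, was at 215.7 and 223.1 CPM in the pericentral and 46.9 and 44.3 CPM in the periportal groups. The periportal spots were somewhat deeper, with a median of 14692 and 16223.5 UMIs against 12912.5 and 12544 UMIs.

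**Figure D3:**
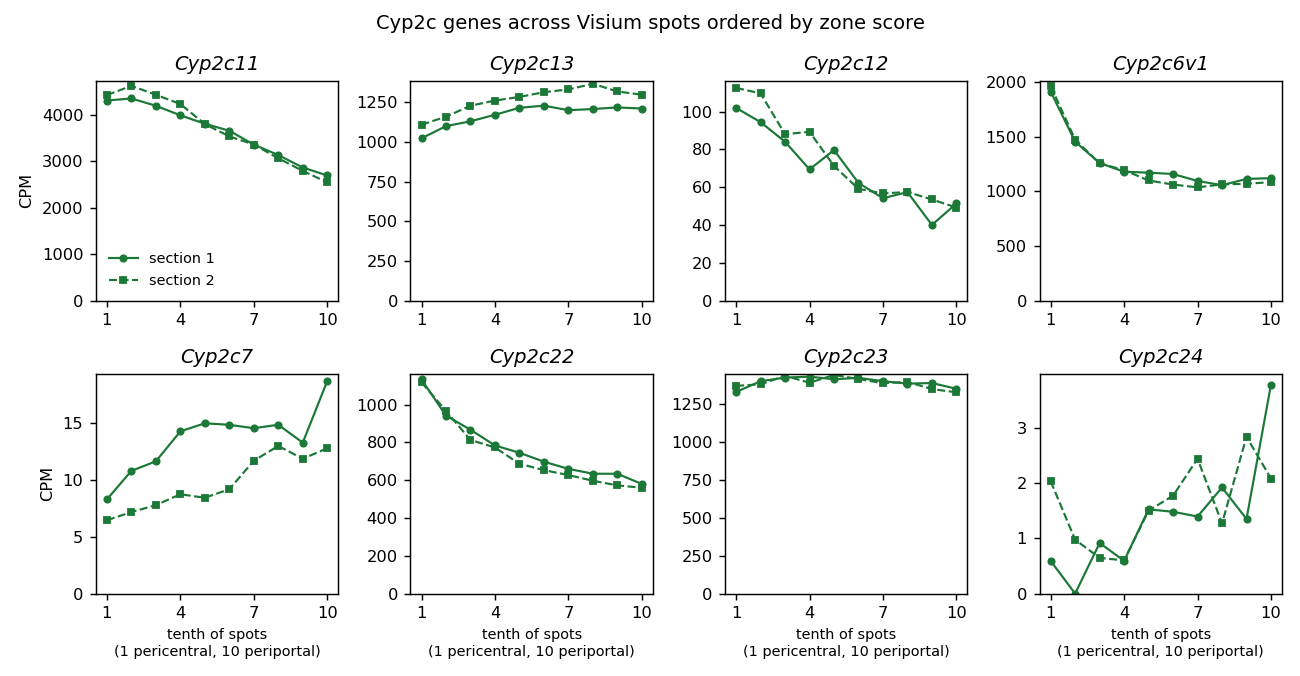
Level of each Cyp2c gene (CPM) over 10 equal groups of Visium spots ordered by the zone score, from pericentral (1) to periportal (10), 1 line per Wistar section. Cyp2c11, Cyp2c12, Cyp2c6v1 and Cyp2c22 decline towards the portal side, Cyp2c7 goes up and Cyp2c23 is level.

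Cyp2c11 had 4258 and 4459 CPM in the pericentral and 2929 and 2858 CPM in the periportal spots, a mean ratio of 1.51-fold (log2 0.59 ± 0.07 SD, n = 2). Cyp2c22 had 967 and 947 CPM pericentrally and 619 and 578 CPM periportally, a ratio of 1.60-fold. The direction was that of the nuclei for both genes. Cyp2c12 had 89.8 and 102.3 CPM pericentrally and 49.9 and 53.7 CPM periportally, a ratio of 1.85-fold and the steepest of the well-counted members. Cyp2c6v1 had 1514 and 1524 CPM pericentrally and 1102 and 1066 CPM periportally, with most of the decline between the first and the second of 10 ordered groups, from 1912 and 1962 CPM to 1454 and 1473 CPM.

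Cyp2c7 was rare in the sections, at 10.5 and 7.86 CPM pericentrally and 15.4 and 12.1 CPM periportally from 80 to 188 UMIs. It was higher on the portal side (log2 -0.59 ± 0.05 SD, n = 2), the same direction as in nuclei at a smaller ratio. Cyp2c13 and Cyp2c23 departed from the nuclei. Cyp2c13 was at 1094 and 1177 CPM pericentrally and 1211 and 1330 CPM periportally, with log2 -0.16 ± 0.02 (SD, n = 2). Cyp2c23 was level at 1394 and 1396 CPM against 1378 and 1365 CPM, with log2 0.03 ± 0.01. Strain, animals and platform differ between the sections and the nuclei and cannot be told apart. Of the 7 members with at least 100 UMIs, 5 were higher in the pericentral spots of both sections, where 35.2% of 7640 genes were, and 2 in the periportal spots, where 28.8% were. By at least 1.2-fold, 4 members were pericentral (4.86% of genes) and 1 periportal (5.31%). Cyp2c24 held 5 to 27 UMIs per group and is not ordered.

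Reads of the family were also present in classes other than hepatocytes. The level of each member in a class was divided by its level in hepatocyte-like cells of the same library, beside the same ratio for the summed hepatocyte markers. In TLH cells this ratio for members had a median of 0.645 over classes and libraries, and the marker list lay between 0.529 and 0.868. The ratio in nuclei had a median of 0.623, with the list between 0.39 and 0.856. In the washed immune-enriched cells it was 0.0161 in DA and 0.107 in LEW, with the list between 0.0131 and 0.0247 in DA and between 0.0701 and 0.158 in LEW.

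**Figure D4:**
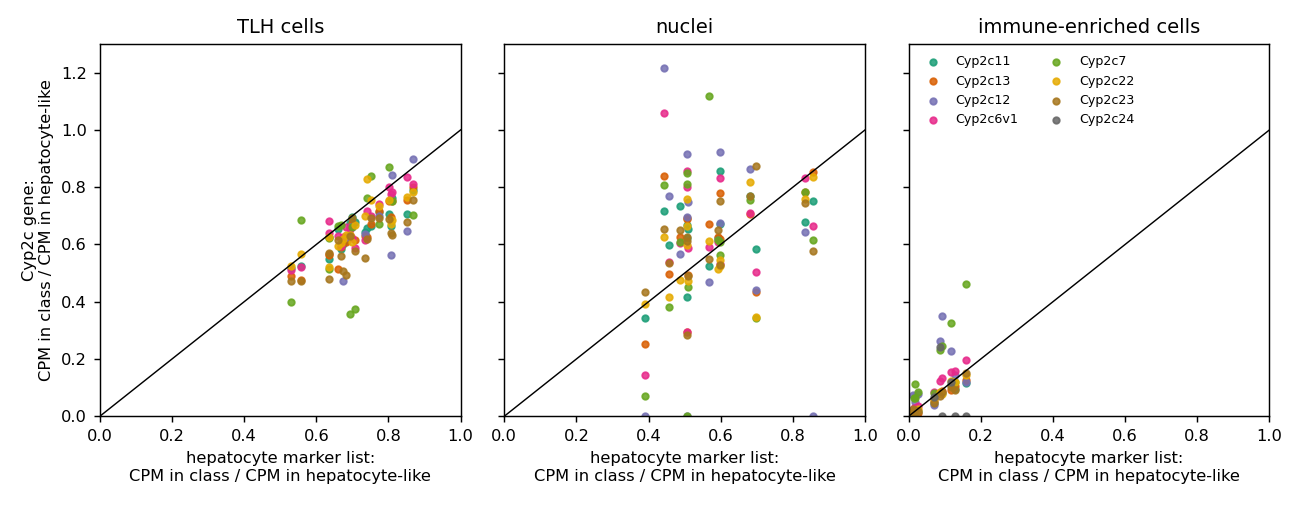
Ratio of a Cyp2c gene's level in another cell class to its level in hepatocyte-like cells (y axis) against the same ratio for the hepatocyte marker list (x axis), 1 point per gene, class and library with at least 200 UMIs in hepatocyte-like cells. The line marks equal ratios. Members lie near the line in TLH cells, scatter in nuclei, and lie at or below 0.2 in immune-enriched cells except for points of Cyp2c12, Cyp2c7 and Cyp2c24 in the LEW library, the highest at 0.46.

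Cyp2c11 had 1325 to 1673 CPM in Kupffer-like cells, 1699 to 1961 CPM in endothelial-like cells and 1490 to 1887 CPM in lymphoid-like cells of the TLH libraries. In the immune-enriched libraries the Kupffer-like cells had 13.7 CPM in DA and 73.8 in LEW, and the endothelial-like cells 21.2 and 186.1 CPM. Thinned to 1500 UMIs a cell, 82.5% to 89.3% of Kupffer-like TLH cells held a Cyp2c11 UMI, against 95.4% to 96.9% of hepatocyte-like cells (95.1% to 99.1% and 97.4% to 99.7% unthinned). Thinned to 1000 UMIs, 0.962% and 12.9% of Kupffer-like immune-enriched cells did, in DA and LEW. Cyp2c11 in the other TLH classes stood at a median of 0.661 of its level in hepatocyte-like cells. How far such reads also add to the hepatocyte-like levels compared by strain was not tested.

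In the ratio to hepatocyte-like cells, members kept close to the ratio of the list in TLH cells, with medians of 0.84 to 0.96 of it per member. In TLH cells Cyp2c12 took the strain pattern of the hepatocytes into every other class: endothelial-like cells had 83.2 and 140.8 CPM in DA against 1.67 and 0 CPM in LEW, from 2 and 0 UMIs. In the immune-enriched cells Cyp2c12 and Cyp2c7 stood at a median of 2.47 and 2.73 times the list's ratio, while Cyp2c11 and Cyp2c13 stood at 0.78 and 0.75 times, and the first pair rests on few UMIs per class. Thinned to 1500 UMIs, 16.8% and 20.3% of DA and 0.900% and 0.961% of LEW hepatocyte-like TLH cells held a Cyp2c12 UMI, against 8.74% and 14.1% of DA and 0.299% and 0.279% of LEW Kupffer-like cells. The unthinned shares in hepatocyte-like cells were 20.9% and 33.4% in DA and 1.40% and 1.61% in LEW.

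Across the 8 hepatocyte-like sums of TLH cells and nuclei, centred within platform, 4 members ran together. Cyp2c11, Cyp2c6v1, Cyp2c13 and Cyp2c23 had Pearson r of 0.71 to 0.95 with one another. Cyp2c6v1 and Cyp2c13 were at 0.95, and Cyp2c11 and Cyp2c23 at 0.94. Cyp2c12 ran against Cyp2c6v1 at -0.91, and Cyp2c11 against Cyp2c22 at -0.80. Of 1540 genes, those most like Cyp2c12 were Dpy19l3 (0.98), Igsf5 (0.98) and Cebpb (0.97), and those most like Cyp2c6v1 were RT1-A1 (0.99), Ugt2b (0.99) and Fgg (0.98). Cyp2c11 was nearest to Ccs, Pklr and Aamp (0.98 to 0.96), Cyp2c13 to Fgg, Mrps7 and Mrpl15, Cyp2c22 to Pkdcc, Wbp1l and Amd1, Cyp2c23 to Fads1, Rad23b and RT1-S3, and Cyp2c7 to Usp16, Ncor1 and Fh (0.91 to 0.89). The 8 points share their strain labels and library depth, so these values only describe the pattern.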

How the data were processed

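The deposited values are raw UMI counts per gene, made by the authors with Cell Ranger 3.1.0 for cells and nuclei and Space Ranger 1.1.0 for sections, per the submitters' processing notes, against a rat reference of 32883 genes. The TLH and immune-enriched tables carry no gene names, and their rows were named by the order of the nuclei tables. No column of another series was present (0). Barcodes were kept from 1500 UMIs in DA-1 TLH, 2000 in the other TLH libraries and 1000 in immune-enriched and nuclei libraries. Every Visium spot was kept. The study states 1500 for both LEW TLH libraries, which would have kept 12124 and 7857 barcodes rather than 5457 and 3844. Mitochondrial limits were 30% in DA-1 TLH, 20% in DA-2 TLH, 40% in both LEW TLH libraries, 50% in immune-enriched cells and 10% in nuclei. The mitochondrial limits in TLH cells thus differed by strain, and their part was not tested. Cells were normalized without Cyp genes (sctransform 0.4.2, Seurat 5.3.0, R 4.3.3), aligned over libraries and clustered. A cluster was named from at least 3 markers among its 30 leading genes. A cluster left unnamed was then compared only with clusters named as classes other than hepatocytes. It was named hepatocyte-like where hepatocyte markers prevailed among 300 leading genes, a number set after counts were seen. This second step could give no other name. It named the largest TLH cluster (5635 cells) and every cluster of the periportal nuclei groups. Scrublet (scanpy 1.11.5) marked 0.0183% to 0.862% of cells, under 0.05% in each TLH library, so it may not have worked there, and marked cells were kept.

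UMIs were summed per library and class. edgeR 4.0.16 (TMM, filterByExpr, quasi-likelihood, Benjamini-Hochberg over all tested genes, threshold 0.05) was the test, and DESeq2 1.42.0 an alternative. Zone fits held the rat as a block. On simulated counts the strain test in TLH cells recovered 74% of genes changed by a log2 of 1 and 98% of those changed by 2, over 9874 genes. The same shares were 15% and 93% in nuclei over 10661 genes, 91% and 100% for zone, and 28% and 95% for the interaction, the last pair over 9937 genes. These runs also called 14, 10, 11 and 4 unchanged genes in that order, and with no gene changed 8 genes were called in nuclei by strain and 0 in the other comparisons. The members and lists were chosen with earlier results of these data known. From each list the text names up to 3 genes per direction with the largest difference among those past the threshold whose groups did not overlap, and Por always. Genes most like a member had at least 50 CPM on both platforms and were ranked by Pearson correlation of log2(CPM + 10). Intervals and floors cover counting error only.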

Additional observations from a re-analysis of the deposited data

Results flagged for a closer look

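Cyp2c12 differed in zone effect between strains by -1.37 on the log2 scale, LEW minus DA, with both DA rats higher on the pericentral and both LEW rats higher on the periportal side. Grouped by the study's zone genes, both LEW rats were higher on the pericentral side. The interaction did not pass in edgeR (adjusted p = 0.142), and over the alternatives it ran from -3.67 to -0.04. It passed with naming by 100 leading genes, where it was -3.67 (adjusted p = 6.29e-07), and with no filter on low counts, where it was -1.36 (adjusted p = 0.0294).

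Cyp2c7 was higher in LEW in TLH cells, by 1.89 on the log2 scale, and lower in LEW in nuclei, at -0.58. All rats of a strain lay on the same side within each platform, and the difference between platforms was not tested.

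Cyp2c24 had a LEW to DA ratio of 0.431 in immune-enriched hepatocyte-like cells, from 115 and 323 UMIs in DA and LEW, against a higher level in both LEW rats in TLH cells. With 1 rat per strain this difference was not tested.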

How the results depend on the processing

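With no filter on low counts, 6 members (3 as reported) and 23 list genes (13) passed by strain in TLH cells, 1 member (0) and 9 list genes (2) in nuclei, and 1 member (0) in the interaction. DESeq2 gave 1 member and 5 list genes in nuclei, library sizes only gave 1 and 6, and RLE size factors gave 1 list gene. Leaving out 1 library at a time gave 2 to 3 members and 3 to 7 list genes in TLH cells, 0 to 1 members and 3 to 6 list genes in nuclei, and 6 to 7 members by zone. Naming by 100 genes gave 1 member in nuclei (135 of 9828 genes) and Cyp2c12 in the interaction (15 of 9357). Zone groups of single nuclei gave Cyp2c23 in the interaction (edgeR adjusted p = 0.042, 270 of 9568 genes). The study describes the nuclei rats as pairs of LEW and DA animals, without saying which libraries form a pair. Same-numbered libraries deviated with a correlation of -0.17 in TLH cells (8925 genes) and 0.095 in nuclei (9698 genes). With 2 same-numbered pairs per platform these values cannot exclude pairing, and the main fits by strain did not use the numbers as pairs. The replicate block gave 3 members and 4 list genes in TLH cells, and 1 member and 7 list genes in nuclei, while crossed numbers as a block gave 6 members and 25 list genes in TLH cells. Without the replicate block 5 members passed by zone, beside 4532 of 9193 genes. Over all genes, calls by strain in TLH cells went from 418 to 1112 with no filter, 221 with the replicate block, 1136 with crossed numbers and 59 to 291 with 1 library left out. In nuclei they went from 139 to 247 with DESeq2, 299 with library sizes only, 534 with no filter, 395 with the replicate block and 103 to 278 with 1 library left out. By zone they went from 6352 to 893 with the study's zone genes, 3886 with single nuclei and 5265 to 5906 with 1 rat left out. In the interaction they went from 7 to 26 with no filter, 3 with library sizes only, 35 with the study's zone genes, 270 with single nuclei and 2 to 15 with 1 rat left out. Library sizes only turned the zone effect of Cyp2c12 to -0.26 and of Cyp2c6v1 to -0.051. With 1 rat left out, the interaction of Cyp2c6v1, -0.19, ran from -0.39 to 0.0067 (the latter without LEW replicate 1), and that of Cyp2c22, 0.27, from -0.21 (without DA replicate 1) to 0.72. That of Cyp2c22 was -0.12 with the study's zone genes and -0.23 with single nuclei. In cells under the median hepatocyte-marker share of their class, the ratio of members to hepatocyte-like cells fell from 0.645 to 0.548 in TLH cells and from 0.623 to 0.471 in nuclei. Where nothing in an alternative's own construction shows it, the cause was not tested. Depth limits Cyp2c24 in TLH cells, nuclei and sections, at 12 to 72 UMIs per library. It also limits Cyp2c12 in LEW TLH cells, at 61 and 51 UMIs, and in the pericentral groups of LEW nuclei, at 51 and 77 UMIs. Named list genes are limited too, such as Cyp4f5 in TLH cells, at 0.156 to 1.85 CPM, and Prlr in LEW nuclei, at 3.92 and 1.86 CPM.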

Other observations

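In nuclei, Cyp2c24 was highest in the middle group of every rat, at 8.17, 13.4, 12.4 and 25.5 CPM in DA-1, DA-2, LEW-1 and LEW-2, against 1.43 to 8.49 CPM in the outer groups. The counts were low, at 2 to 28 UMIs per outer group. Grouped by the study's zone genes, Cyp2c24 was higher periportally than pericentrally in every rat. It then had 6.03, 8.42, 20.5 and 12.0 CPM periportally and 1.62, 2.47, 1.42 and 1.85 CPM pericentrally. Cyp2c6v1 was lowest in the middle group of every rat, at 1470, 1450, 2980 and 3141 CPM in the same order. Neither pattern of the middle group was tested, and both were picked after the values were seen.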
